A study of Rattus norvegicus with 18 samples.

Results

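Hnrnph1, Hnrnpf and Ssb code for 3 of the 4 RNA-binding proteins that were precipitated from axoplasm of injured rat nerve, namely hnRNP H1, hnRNP F and La. The rows were chosen by their gene symbol alone, and each symbol had 1 transcript entry, so the set is 3 of the 13416 entries of the deposited table. Hnrnph1 (ENSRNOT00000078505) lies on chromosome 10, Hnrnpf (ENSRNOT00000019529) on chromosome 4 and Ssb (ENSRNOT00000011174) on chromosome 3. All 3 passed the filter on low counts. Hnrnpk, the gene of the fourth target, had no entry under that symbol in the deposited table. Whether the hnRNP K antibody brought down the mRNA of its own target could therefore not be asked. Since the study precipitated the proteins themselves, the question followed here was whether an antibody brought down the mRNA of its own target or that of another target.

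RNA immunoprecipitation (RIP) captures a protein on beads with an antibody and sequences the RNA that comes down with it. All 6 groups came from Sprague-Dawley rats whose sciatic nerve was crushed, and axoplasm was pressed out of the proximal nerve 7 days later in a buffer without detergent. The specific antibodies were against La/SSB and the 3 hnRNP proteins H1, F and K. An antibody to FLAG, a peptide tag, was the control antibody, and Input is the RNA before precipitation. There were 3 libraries in each group, 18 in all. Whether they came from separate rats is not in the labels, and the p-values then describe how far these libraries vary, which may be technical. The main tests took no account of the replicate number, although each library correlated best with others of its number once group means were taken out.

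hnRNP H1 and hnRNP F are close relatives that bind runs of guanines through quasi-RRM domains and act mainly in splicing and 3′ end formation. hnRNP K binds runs of cytosines through KH domains and takes part in splicing, mRNA stability and translation. La, the product of Ssb, binds the uridine tails of new RNA polymerase III transcripts, and it can also bind mRNAs and act on their translation. Many RNA-binding proteins are known to bind their own mRNA or that of a relative as a way of keeping their level in bounds. In nerve, such proteins travel into the axon with mRNAs that are translated there after injury.

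Over the entries of the deposited table, the libraries held between 4610750 and 16754262 reads. Shares of reads below are of these totals, and reads outside the deposited entries are not known. The FLAG RIP replicates differed most among themselves. Their median SD of log2 CPM (reads per 1000000 reads after TMM scaling, which aligns the bulk of entries between libraries) was 0.98, against 0.38 to 0.74 in the other groups. FLAG RIP 1 and FLAG RIP 3 had 1601 and 1568 entries at 0 reads and FLAG RIP 2 had 776. The axoplasm also held RNA of other cells. All 8 markers of fibroblasts and perineurium were present and took 4.84 to 9.64% of Input reads and 1.61 to 2.60% of FLAG RIP reads, and 12.1 to 21.5% in the hnRNP K RIP. All 8 Schwann cell markers were present at 0.114 to 0.455% over all libraries, 7 of 8 macrophage markers at 0.0776 to 0.817%, and 9 of 10 neuronal markers at 0.0101 to 0.0661%. The 4 erythrocyte markers took 0.753 to 2.25% of FLAG RIP reads, 0.403 to 0.928% in Input and 0.0309 to 0.0738% in the hnRNP H1 RIP. The part of these differences in the results that follow was not tested. In Input, a bulk extract, fewer cells of a type and less RNA per cell cannot be told apart. Between RIPs the shares also depend on which RNA came down with each antibody.

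**Figure D1:**
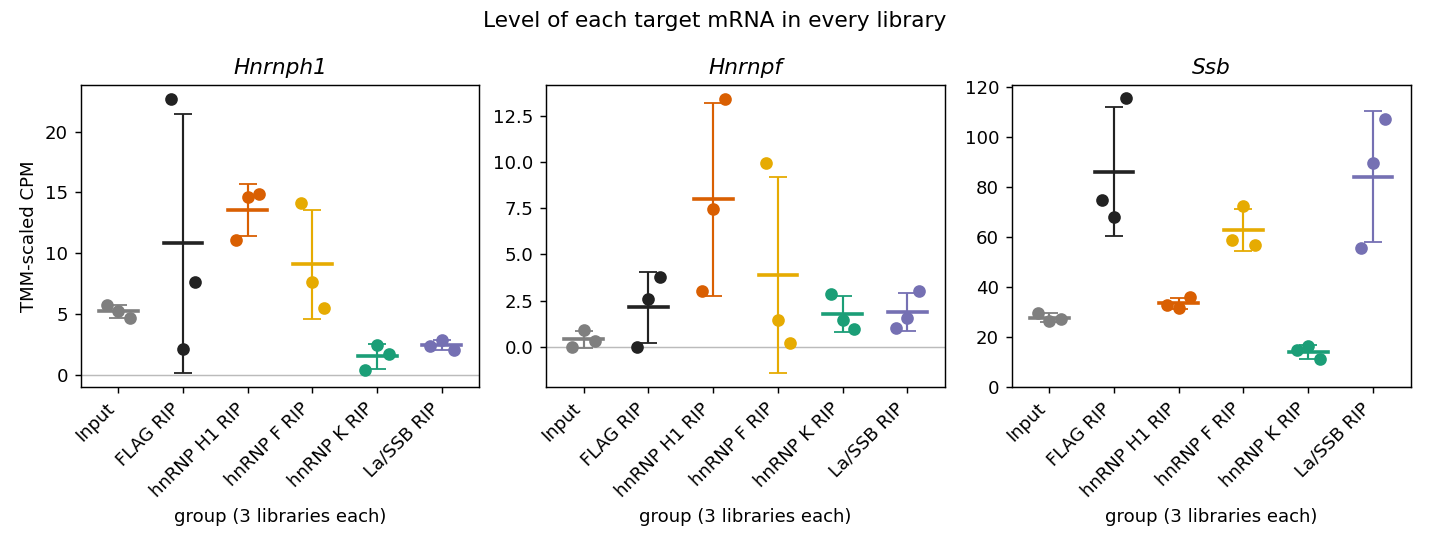
Level of the 3 mRNAs in each library (CPM after TMM scaling, vertical axis, one panel per gene) by group (horizontal axis). Each point is 1 library, the line is the mean of 3 libraries and the bar is the SD; in Ssb the hnRNP K points, 11.1 to 16.4 CPM, lie below all others, and in Hnrnph1 the 3 FLAG points spread from 2.07 to 22.7 CPM.

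None of the 3 antibodies whose target mRNA was measured precipitated more of that mRNA than the FLAG antibody did beyond the spread between libraries. Ssb with the La/SSB antibody, Hnrnph1 with the hnRNP H1 antibody and Hnrnpf with the hnRNP F antibody each overlapped the FLAG libraries, and none of these 3 comparisons passed the test. Of the 3 mRNAs, 0 were higher than FLAG with any of the 4 specific antibodies. Among all 13276 entries tested, 18.3% were higher with hnRNP H1, 16.6% with hnRNP F, 14.5% with hnRNP K and 9.1% with La/SSB (edgeR quasi-likelihood test, Benjamini-Hochberg adjusted p under 0.05).

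Ssb was the most abundant of the 3 mRNAs. It codes for La. Per transcript length, its level in Input was 20.8 ± 1.1 FPKM (SD, n = 3), against 3.12 ± 0.118 FPKM for Hnrnph1 and 0.23 ± 0.25 FPKM for Hnrnpf.

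In the La/SSB RIP, Ssb stood at 55.5, 89.6 and 107 CPM. In the FLAG RIP it stood at 74.9, 67.8 and 116 CPM. The 2 groups overlapped, with the lowest value in La/SSB RIP 1 and the highest in FLAG RIP 3. The log2 fold change was -0.07 ± 0.39 (SE, adjusted p = 0.922), and its 95% interval, -0.88 to 0.74, spans a range from 0.544 to 1.67 times the FLAG level. Scaled by total counts the value turned positive, 0.36, and so did the median of all entries, which moved from -0.32 to 0.07. Relative to that median, Ssb stood at 0.25 with TMM scaling and at 0.29 with total counts. In deposited FPKM the mean level was 71.4 ± 23.2 with La/SSB and 55.6 ± 12.1 with FLAG, a ratio of 1.28. FPKM is itself scaled by total counts, so this ratio is not a separate measure.

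Against Input the picture was different for Ssb. Input held 29.6, 26.2 and 27.4 CPM, below every La/SSB and every FLAG library. Ssb was 1.59 ± 0.37 higher on the log2 scale with La/SSB than in Input, an increase of 3.02-fold with a 95% interval of 1.77 to 5.16 (unadjusted p = 0.000315). It did not pass the adjustment over all entries (adjusted p = 0.164), in a comparison where only 0.0376% of 13300 entries were called. The FLAG RIP had nearly the same difference from Input, 1.63 ± 0.37, and there Ssb rose past the threshold (adjusted p = 0.00744, with 16.2% of all entries called). With only the 6 libraries compared, the FLAG call was lost (adjusted p = 0.116) and the La/SSB difference was called (adjusted p = 0.0338). Both comparisons use the same Input libraries.

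Ssb also rose against Input in the hnRNP F RIP, where it stood at 58.7, 72.4 and 56.9 CPM. The log2 fold change was 1.17 ± 0.37 (adjusted p = 0.0291, 18.9% of entries called), and the groups did not overlap. Relative to the median of all entries it was 1.13, and 1.14 when scaled by total counts, where the value itself was 0.65 (adjusted p = 0.211). The call did not hold without hnRNP F RIP 2 (0.0758), Input 1 (0.0722), Input 2 (0.0977) or Input 3 (0.0876). Against FLAG the difference was -0.47 ± 0.39 (adjusted p = 0.367).

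With the other antibodies Ssb was low. In the hnRNP H1 RIP it stood at 32.8, 31.4 and 36.0 CPM, and in the hnRNP K RIP at 14.7, 16.4 and 11.1 CPM. Each hnRNP H1 and each hnRNP K library lay below every FLAG library. Ssb was lower than FLAG by 2.60-fold with hnRNP H1 (log2 fold change -1.38 ± 0.40, adjusted p = 0.0103) and by 5.99-fold with hnRNP K (-2.58 ± 0.41, adjusted p = 0.000184). Of all entries, 21.2% and 19.4% were lower in those comparisons, 17.1% with hnRNP F and 9.67% with La/SSB. The hnRNP H1 call was lost with only the 6 libraries compared (adjusted p = 0.0834) and with FLAG RIP 2 alone as the control (adjusted p = 0.108), whereas the hnRNP K call held in every alternative tried. Against Input, Ssb had 0.27 ± 0.37 with hnRNP H1 (adjusted p = 0.644; -0.28 when scaled by total counts) and -0.98 ± 0.37 with hnRNP K (adjusted p = 0.0865). The latter passed when scaled by total counts (-1.66, adjusted p = 0.0034), with DESeq2 (0.0326) and with only the 6 libraries compared (0.0289).

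Hnrnph1 codes for hnRNP H1. Its FLAG libraries held 22.7, 2.07 and 7.60 CPM, from 333, 20 and 122 reads. The exact Clopper-Pearson 95% counting intervals of the highest and the lowest, 20.3 to 25.3 and 1.26 to 3.2 CPM, lie far apart, so the FLAG spread exceeded counting error; such intervals cover counting error only. In the hnRNP H1 RIP the mRNA stood at 11.1, 14.7 and 14.9 CPM, all inside the FLAG range.

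Hnrnph1 in its own RIP had a log2 fold change against FLAG of 0.30 ± 0.84 (adjusted p = 0.797, 95% interval -1.45 to 2.06). It turned to -0.18 without FLAG RIP 2 and stood at 2.65 with FLAG RIP 2 alone as the control. In Input the mRNA stood at 5.70, 5.27 and 4.67 CPM, below each hnRNP H1 library. The difference of the hnRNP H1 RIP from Input was 1.34 ± 0.81 (adjusted p = 0.243, 24.1% of entries called), or 2.54-fold with an interval of 0.796 to 8.09.

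Hnrnph1 with the hnRNP F antibody stood at 14.1, 7.59 and 5.52 CPM, overlapping FLAG and Input. Its log2 fold change was -0.24 ± 0.84 against FLAG (adjusted p = 0.849; 0.90 without FLAG RIP 1, 0.02 without hnRNP F RIP 3 and 2.1 with FLAG RIP 2 alone) and 0.78 ± 0.80 against Input (adjusted p = 0.544). The FLAG RIP itself had 1.02 ± 0.80 against Input (adjusted p = 0.391; -0.11 without FLAG RIP 1).

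The lowest Hnrnph1 levels were in the hnRNP K RIP, with 0.368, 2.45 and 1.66 CPM, and in the La/SSB RIP, with 2.38, 2.87 and 2.03 CPM. Both lay below every Input library and overlapped FLAG only through FLAG RIP 2. With hnRNP K, Hnrnph1 was lower than FLAG by 6.83-fold (-2.77 ± 0.90, adjusted p = 0.0242). The value was -0.43 with FLAG RIP 2 alone. The call was lost with only the 6 libraries compared (adjusted p = 0.113) and with a block for the replicate number. It was also lost without FLAG RIP 1 (-1.63, 0.141), hnRNP K RIP 1 (0.104) or hnRNP K RIP 3 (0.0699). With La/SSB the difference was -2.15 ± 0.88 (adjusted p = 0.0913), called without FLAG RIP 2 (0.0246) and by DESeq2 (0.0224), and 0.19 with FLAG RIP 2 alone. Against Input it was -1.76 ± 0.82 with hnRNP K (adjusted p = 0.177) and -1.10 ± 0.81 with La/SSB (adjusted p = 0.834).

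Hnrnpf codes for hnRNP F and was near the limit of detection. Input libraries held 0, 5 and 2 reads, or 0, 0.879 and 0.322 CPM. A count of 0 in Input 1 allows a level of up to 0.552 CPM, taken as 3 reads. FLAG RIP libraries held 0, 25 and 61 reads, or 0, 2.59 and 3.8 CPM. The 0 in FLAG RIP 1, with 15476233 reads over the deposited entries, allows up to 0.205 CPM.

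In the hnRNP F RIP, Hnrnpf stood at 9.96, 1.45 and 0.197 CPM, from 60, 9 and 1 reads. The value in hnRNP F RIP 1 was above every FLAG library, and the others were within the FLAG range. The log2 fold change against FLAG was 0.90 ± 1.15 (adjusted p = 0.569, 95% interval -1.50 to 3.3), and -1.13 without hnRNP F RIP 1. Against Input it was 2.79 ± 1.22 (adjusted p = 0.119).

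Hnrnpf was highest with the antibody to its relative hnRNP H1, at 3.04, 7.46 and 13.4 CPM from 19, 57 and 86 reads. Every one of these libraries was above every Input library. The mRNA rose against Input by 13.9-fold, with a 95% interval of 2.27 to 84.8 (3.79 ± 1.26, adjusted p = 0.0311, where 24.1% of all entries were called). Against FLAG the difference was 1.87 ± 1.17 (adjusted p = 0.21), and hnRNP H1 RIP 1 lay below FLAG RIP 3. The Input call was lost when scaled by total counts (adjusted p = 0.0593), with 1 subtracted from each count (0.0563), and without hnRNP H1 RIP 2 (0.0509), hnRNP H1 RIP 3 (0.0957), Input 1 (0.119), Input 2 (0.0552) or Input 3 (0.103).

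The remaining Hnrnpf values were 2.85, 1.47 and 0.946 CPM with hnRNP K and 1.04, 1.56 and 3.04 CPM with La/SSB. They lay above Input and within the FLAG range. Against FLAG the differences were -0.22 ± 1.14 (adjusted p = 0.896) and -0.20 ± 1.14 (adjusted p = 0.922). The first turned to 0.49 without FLAG RIP 3 and 0.07 without hnRNP K RIP 3. The second turned to 0.51 without FLAG RIP 3, 0.08 without La/SSB RIP 1 and 0.16 when scaled by total counts. Against Input they were 1.66 ± 1.19 (adjusted p = 0.403) and 1.75 ± 1.19 (adjusted p = 0.813), and the FLAG RIP had 1.92 ± 1.19 (adjusted p = 0.269).

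**Figure D2:**
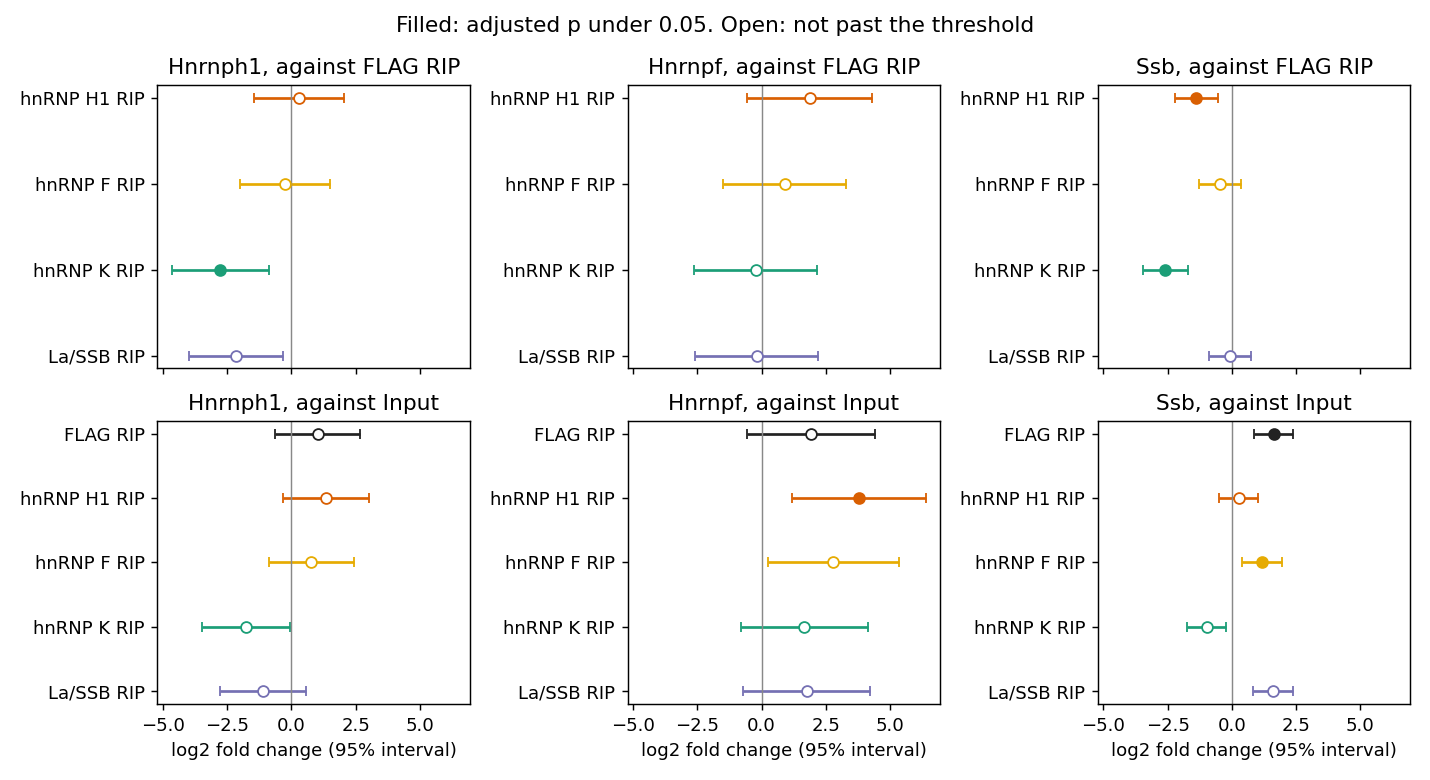
Log2 fold change of the 3 mRNAs in each RIP against FLAG and against Input (points, filled where called, with 95% intervals from the edgeR fit; 3 libraries against 3). The interval of Ssb with hnRNP K against FLAG, -3.45 to -1.72, lies wholly below 0, and those of each mRNA in its own RIP against FLAG span 0.

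By call, 0 of the 3 mRNAs were higher and 1 was lower than FLAG with hnRNP H1, 0 and 0 with hnRNP F, 0 and 2 with hnRNP K, and 0 and 0 with La/SSB. The share of all entries called in either direction was 39.5%, 33.7%, 33.9% and 18.8% in the same order. Their median log2 fold change was 0.30, -0.24, -2.58 and -0.20, beside -0.27, -0.21, -0.30 and -0.32 over all entries. Against Input, 1 was higher with hnRNP H1, 1 with hnRNP F and 1 in the FLAG RIP, beside 13.4%, 11.7% and 8.71% of all entries. With hnRNP K and La/SSB 0 were called, where 13.1% and 0.0376% of all entries were called and 6.58% and 0.0226% were higher. The 4 comparisons with FLAG share the FLAG libraries and those with Input share the Input libraries.

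The antibodies were then compared with each other. FLAG is neither side of these comparisons, but its libraries enter the filter, the scaling and the shared estimate of spread. Ssb differed among the 4 specific RIPs (adjusted p = 0.00042) and so did Hnrnph1 (adjusted p = 0.0253), while Hnrnpf did not pass (adjusted p = 0.331). Of all entries, 33.3% passed this test. The Hnrnph1 call was lost without hnRNP H1 RIP 2 (0.056), hnRNP H1 RIP 3 (0.0572), hnRNP K RIP 1 (0.0696), hnRNP K RIP 3 (0.0666) or La/SSB RIP 3 (0.0545).

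Ssb was higher in the La/SSB RIP than in the hnRNP K RIP by 5.72-fold, every La/SSB library being above every hnRNP K library (hnRNP K against La/SSB -2.52 ± 0.41, adjusted p = 0.000503, 12.6% of entries called). It was also higher with hnRNP F than with hnRNP K by 4.33-fold (2.11 ± 0.41, adjusted p = 0.000641, 28.8% called). Both calls held in every alternative tried. Between hnRNP H1 and La/SSB the difference was -1.31 ± 0.40 (adjusted p = 0.0278, 16.2% called), with no overlap. It was not called without hnRNP H1 RIP 1 (0.0794), hnRNP H1 RIP 2 (0.0952), hnRNP H1 RIP 3 (0.0722), La/SSB RIP 2 (0.0902) or La/SSB RIP 3 (0.131). That between hnRNP H1 and hnRNP K, 1.21 ± 0.40 (adjusted p = 0.0281, 28.4% called), was lost on leaving out any one of their 6 libraries, with adjusted p from 0.0511 to 0.119.

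Ssb with La/SSB was not distinguished from Ssb with hnRNP F. The difference was -0.40 ± 0.39 for hnRNP F against La/SSB (adjusted p = 0.56, 95% interval -1.22 to 0.41, 12.5% of entries called), and -1.12 when scaled by total counts (adjusted p = 0.0486), where the median of all entries moved from -0.02 to -0.74. Relative to that median the difference was -0.38 in both. The hnRNP H1 and hnRNP F RIPs had no overlap in Ssb, with hnRNP H1 lower (-0.91 ± 0.39, unadjusted p = 0.0324, adjusted p = 0.451). In that comparison edgeR called 0% of entries, 1339 had an unadjusted p under 0.05, and DESeq2 called 81.

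Hnrnph1 was higher with hnRNP H1 than with hnRNP K by 8.44-fold (3.08 ± 0.92, adjusted p = 0.0163), and with hnRNP F than with hnRNP K by 5.77-fold (2.53 ± 0.90, adjusted p = 0.041). In neither pair did the groups overlap. The first call was lost without hnRNP K RIP 1 (0.0764) or hnRNP K RIP 3 (0.0579). The second was lost without hnRNP F RIP 1 (0.127), hnRNP F RIP 2 (0.0651), hnRNP K RIP 1 (0.152), hnRNP K RIP 2 (0.0608) or hnRNP K RIP 3 (0.106). It was also lost with 1 subtracted from each count (0.0521) and with a block for the replicate number.

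Against La/SSB, Hnrnph1 had 2.46 ± 0.89 with hnRNP H1 (adjusted p = 0.0664), called by DESeq2 (0.00811) and with only the 6 libraries compared (0.00765), and 1.91 ± 0.87 with hnRNP F (adjusted p = 0.172). Its own antibody and that of hnRNP F differed by 0.55 ± 0.85 (adjusted p = 0.878, 95% interval -1.22 to 2.32), and hnRNP K and La/SSB by -0.62 ± 0.86 (adjusted p = 0.688). For Hnrnpf none of the 6 pairs was called. Its largest was hnRNP H1 against hnRNP K, 2.09 ± 1.18 (adjusted p = 0.196, and 0.034 with only the 6 libraries compared).

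**Figure D3:**
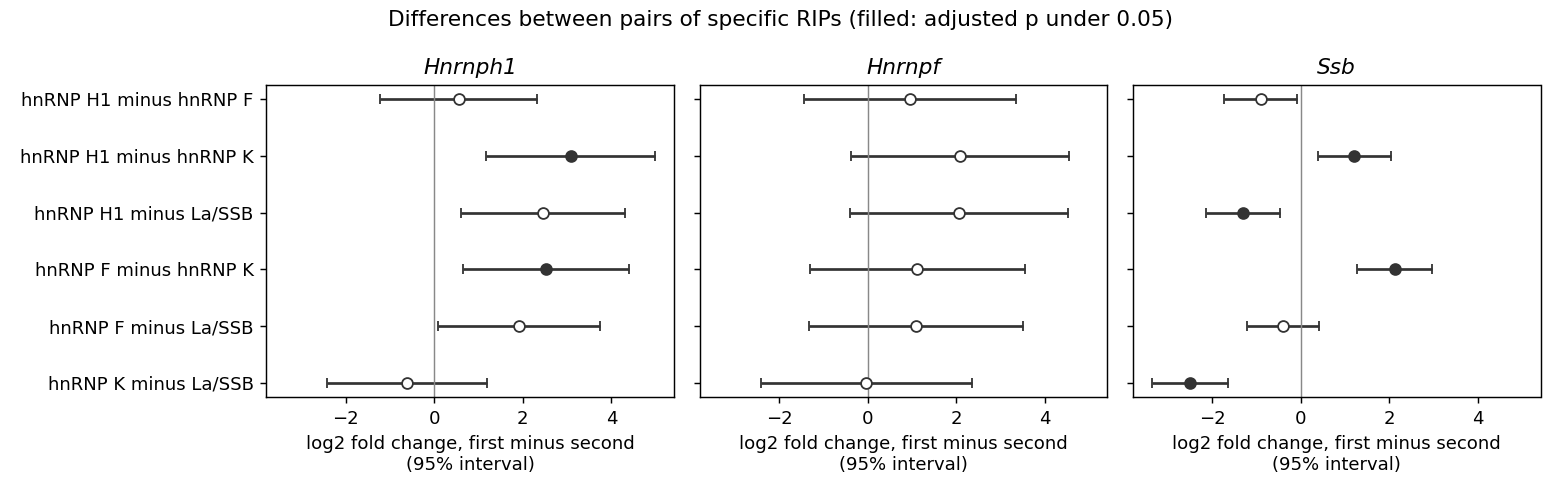
Log2 difference of the 3 mRNAs between each of the 6 pairs of specific antibodies (points, filled where called, with 95% intervals from the edgeR fit on 15 libraries; 3 libraries against 3). The intervals of Ssb for hnRNP F against hnRNP K, 1.26 to 2.96, and for hnRNP K against La/SSB, -3.38 to -1.65, are the farthest from 0 for their width.

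By mean level in CPM, Ssb ran from FLAG (86.1 ± 25.8) over La/SSB (84.1 ± 26.2), hnRNP F (62.7 ± 8.45), hnRNP H1 (33.4 ± 2.33) and Input (27.7 ± 1.73) to hnRNP K (14.1 ± 2.68). No step between neighbours passed the test, although from hnRNP F downwards neighbouring groups did not overlap. Hnrnph1 ran from hnRNP H1 (13.5 ± 2.14) over FLAG (10.8 ± 10.7), hnRNP F (9.07 ± 4.48), Input (5.21 ± 0.52) and La/SSB (2.42 ± 0.423) to hnRNP K (1.49 ± 1.05), with no overlap between Input and La/SSB alone. Hnrnpf ran from hnRNP H1 (7.98 ± 5.22) over hnRNP F (3.87 ± 5.31), FLAG (2.13 ± 1.94), La/SSB (1.88 ± 1.04) and hnRNP K (1.75 ± 0.983) to Input (0.4 ± 0.445), with no overlap in the last step alone. Among the neighbours of all 3 genes the adjusted p was between 0.0865 and 0.991.

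A rank within a library does not depend on scaling between libraries. By FPKM, Ssb stood above 86.7 to 93.6% of all entries in the La/SSB RIP, 82.0 to 88.1% in FLAG and 80.9 to 86.1% in the hnRNP F RIP. It stood above 74.4 to 77.3% in the hnRNP H1 RIP, 71.5 to 73.9% in Input and 54.1 to 62.8% in the hnRNP K RIP. Its La/SSB and hnRNP F ranks did not overlap. Hnrnph1 stood above 44.9 to 53.4% of entries in the hnRNP H1 RIP, 34.6 to 51.1% in the hnRNP F RIP and 20.6 to 56.5% in FLAG. It stood above 27.7 to 32.7% in Input, 13.3 to 18.5% in the La/SSB RIP and 6.48 to 19.8% in the hnRNP K RIP. Hnrnpf stood above 9.88 to 42.0% in the hnRNP F RIP, 22.7 to 49.5% in the hnRNP H1 RIP and 0 to 10.3% in Input. The La/SSB and FLAG ranks of Ssb overlapped, as did the ranks of the other genes in their own RIP and in FLAG.

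The fold changes of the authors' deposited table were near these values, while its FDR values differed more. With hnRNP K against FLAG it gives an FDR of 8.65e-08 for Ssb, beside an adjusted p of 0.000184 here. For Hnrnph1 in that comparison it gives 0.00513 beside 0.0242. For Ssb with hnRNP K against Input its FDR was the larger, 0.111 beside 0.0865. For Ssb with La/SSB against FLAG the authors' deposited table gives a log2 fold change of -0.09 with an FDR of 0.897, and against Input 1.53 with an FDR of 0.0563. For Hnrnph1 with hnRNP H1 against FLAG the authors' deposited table gives 0.31 with an FDR of 0.771, and for Hnrnpf with hnRNP F 0.88 with an FDR of 0.534. One comparison lay on the other side of 0.05: in the authors' deposited table Hnrnph1 with La/SSB against FLAG has -2.17 with an FDR of 0.0338.

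Relatives of the 4 targets were listed by protein family, and 13 entries of them were in the table. Hnrnph2, the closest paralog of Hnrnph1, had 34.3 ± 8.6 FPKM in Input, against 3.12 FPKM for Hnrnph1 and 0.23 FPKM for Hnrnpf. It stood at 46.5, 32.9 and 51.5 CPM in Input and 95.3, 73.9 and 144 CPM in FLAG. With hnRNP H1 it stood at 119.7, 197 and 238 CPM and with hnRNP F at 172, 178 and 232 CPM. With hnRNP K it stood at 15.3, 17.4 and 16.3 CPM and with La/SSB at 51.0, 36.3 and 37.3 CPM. All hnRNP H1 and hnRNP F libraries were above all Input, La/SSB and hnRNP K libraries, and all hnRNP K libraries were the lowest.

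Hnrnph2 rose against Input with hnRNP H1 (2.08 ± 0.35, adjusted p = 0.00016) and hnRNP F (2.15 ± 0.35, adjusted p = 0.000166). It was higher with hnRNP H1 and hnRNP F than with hnRNP K (3.45 ± 0.38, adjusted p = 2.06e-06 and 3.52 ± 0.38, adjusted p = 1.96e-06) and than with La/SSB (2.17 ± 0.36, adjusted p = 0.000304 and 2.23 ± 0.36, adjusted p = 0.000287). It fell with hnRNP K against FLAG (-2.64 ± 0.37, adjusted p = 5.66e-05). Each of these 7 calls held in every alternative tried. Against FLAG it had 0.81 with hnRNP H1 (adjusted p = 0.073) and 0.87 with hnRNP F (adjusted p = 0.0616), and FLAG itself was above Input (1.26 ± 0.34, adjusted p = 0.0183). That last call was lost without FLAG RIP 3, Input 1 or Input 2 and with only the 6 libraries compared, with adjusted p up to 0.201. Hnrnph1, Hnrnph2 and Hnrnpf share long stretches of similar coding sequence, and how the authors counted reads that match more than one of them is not stated, so the split between them is uncertain.

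Hnrnph3, a smaller family member, was higher with hnRNP H1 and with hnRNP F than with hnRNP K (4.87 ± 0.93, adjusted p = 0.000621 and 4.53 ± 0.92, adjusted p = 0.00107), in every alternative tried. Its hnRNP K libraries held 1, 4 and 5 reads. Esrp2, a splicing regulator of epithelial cells with related RNA-binding domains, had 0 reads in all FLAG and Input libraries. It passed the filter only through the RIP libraries that hold it, so a difference from FLAG was fixed by that filter and its calls are no support for one. As a description, against 3 reads over the FLAG group it was at least 14.6-fold higher with hnRNP H1, 25.5-fold with hnRNP K and 61.4-fold with La/SSB. Of its 168 La/SSB reads, 155 were in La/SSB RIP 1, and without that library its La/SSB call was lost. Its hnRNP K call was lost without hnRNP K RIP 1 and its hnRNP H1 call without hnRNP H1 RIP 3 or any one FLAG library, with adjusted p up to 0.261 over the alternatives. With Esrp2 left aside, neither Hnrnph2 nor Hnrnph3 was higher than FLAG with any antibody. Both were lower with hnRNP K, and Hnrnph2 also with La/SSB (-1.36 ± 0.35, adjusted p = 0.0137). That La/SSB call was lost with total counts, with only the 6 libraries compared and without La/SSB RIP 2 or La/SSB RIP 3. The Hnrnph3 call with hnRNP K was lost with only the 6 libraries compared and without hnRNP K RIP 1. Over all entries 18.3% were higher and 21.2% lower with hnRNP H1, 16.6% and 17.1% with hnRNP F, 14.5% and 19.4% with hnRNP K, and 9.1% and 9.67% with La/SSB. In the same order Hnrnph2 had 0.81, 0.87, -2.64 and -1.36 against FLAG, and Hnrnph3 had 1.81, 1.47, -3.06 and -1.04.

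Pcbp2 codes for a poly(C)-binding protein with KH domains, the domain type of hnRNP K. Both of its transcripts were higher with hnRNP K than with FLAG, and neither passed against Input. ENSRNOT00000055302 stood at 277, 202 and 321 CPM with hnRNP K, 55.7, 54.0 and 47.6 CPM with FLAG and 116, 151 and 124 CPM in Input. Every hnRNP K library was above every other library. Against FLAG the log2 fold change of Pcbp2 ENSRNOT00000055302 was 2.37 ± 0.42 (adjusted p = 0.000467), and that of Pcbp2 ENSRNOT00000077687 was 3.35 ± 0.64 (adjusted p = 0.000823), and both held in every alternative tried. Against Input they had 1.03 (adjusted p = 0.079) and 1.29 (adjusted p = 0.124) with hnRNP K. The FLAG RIP was itself below Input for both, at -1.31 (adjusted p = 0.0263) and -2.04 (adjusted p = 0.0176). The first of these calls was lost without FLAG RIP 3 or any one Input library and with only the 6 libraries compared (adjusted p up to 0.0859 over the alternatives). The second was lost with only the 6 libraries compared (0.119). With hnRNP K, 2 of the 4 entries of this family, Pcbp2, Pcbp3 and Pcbp4 together, were higher than FLAG and 0 lower, with a median of 1.29, and both calls were transcripts of 1 gene. Over all entries 14.5% were higher and 19.4% lower in that comparison. With hnRNP H1 and La/SSB 0 were called (medians -0.20 and -0.08), and with hnRNP F 0 were higher and 1 lower (median -0.80).

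Of 6 La relatives and partners, 0 were higher than FLAG with any antibody, where 9.1 to 18.3% of all entries were higher. They were Larp1, which binds mRNAs of the translation machinery, Larp1b, Larp4b, Larp6, Larp7, which binds the 7SK RNA, and Trove2, which codes for the Ro protein that joins La on Y RNAs. With La/SSB 0 were lower (median -0.98). With each of the other 3 antibodies 1 was lower: Larp7 with hnRNP H1 (-3.43 ± 1.11, adjusted p = 0.0199) and hnRNP K (-3.29 ± 1.09, adjusted p = 0.0266), and Larp4b with hnRNP F (-2.87 ± 0.83, adjusted p = 0.0128). The medians were -0.96, -1.09 and -0.71 with hnRNP H1, hnRNP K and hnRNP F. Over all entries 21.2%, 19.4% and 17.1% were lower than FLAG in the same order, and 9.67% with La/SSB. Larp7 lost its hnRNP H1 call without FLAG RIP 3 or either of the hnRNP H1 libraries 1 and 2, and with only the 6 libraries compared. It lost its hnRNP K call without FLAG RIP 3 or any one hnRNP K library. That call was also lost with 1 subtracted from each count and with only the 6 libraries compared. Larp4b lost its call without FLAG RIP 1 or hnRNP F RIP 3 and with only the 6 libraries compared. FLAG RIP 1 held 81.3 CPM of it, against 12.2 and 10.5 CPM in the other FLAG libraries. Against Input, 2 of the 6 were higher with hnRNP H1, 1 with hnRNP F and 2 in the FLAG RIP. Of all entries 13.4%, 11.7% and 8.71% were higher there. With hnRNP K and La/SSB 0 were higher. Larp1 was called each time, and its hnRNP H1 call held in every alternative tried. Larp1 and Trove2 were also higher with hnRNP H1 than with La/SSB, each in 8 of 13 alternatives.

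**Figure D4:**
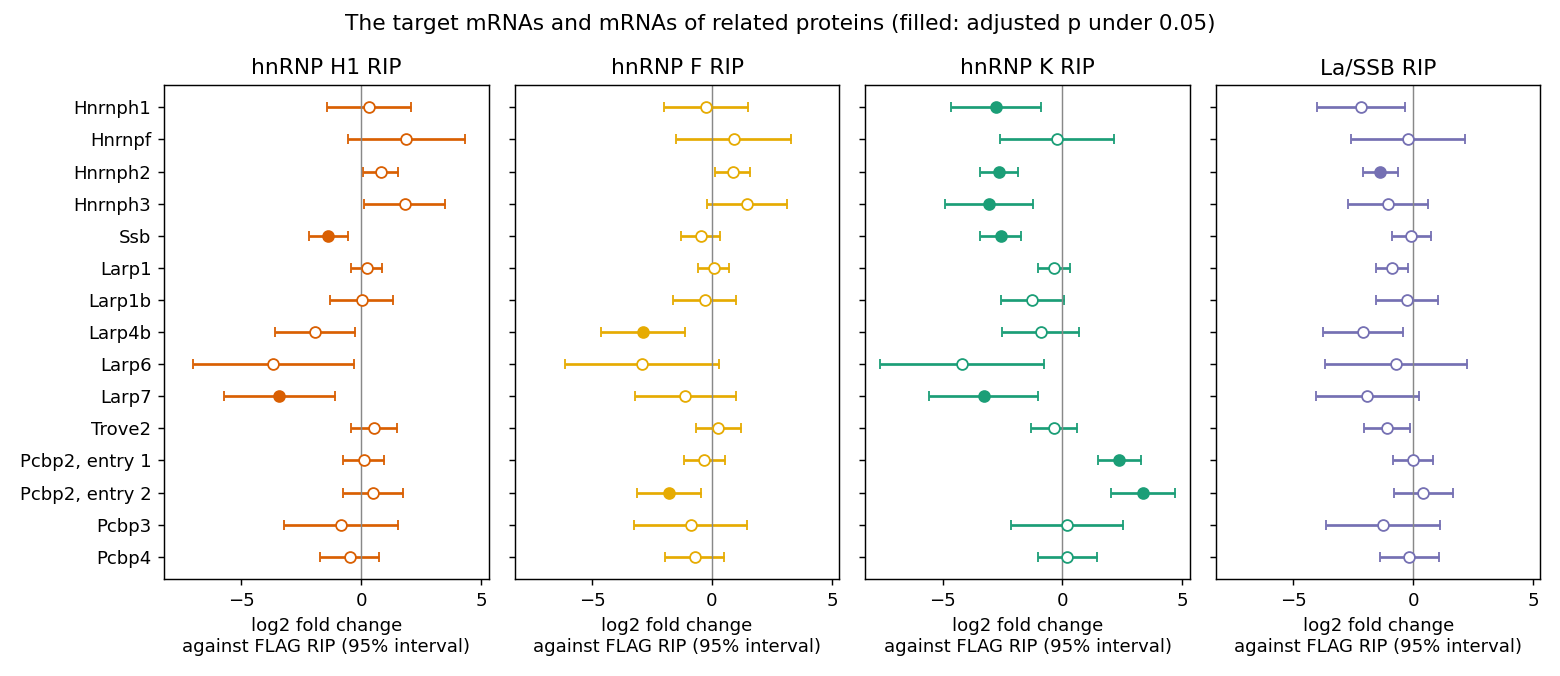
Log2 fold change against FLAG of the 3 mRNAs and of the entries of their relatives other than Esrp2 (rows), with 1 panel for each specific RIP. Points are edgeR estimates from 3 libraries against 3, bars are 95% intervals, and filled points passed adjusted p under 0.05; in the hnRNP K panel both Pcbp2 entries are at 2.37 and 3.35 and Hnrnph2 is at -2.64.

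The entries whose log2 CPM followed each mRNA most closely over the 18 libraries are given as a description. Libraries of one group share their antibody, so a high correlation partly reflects the groups. For Hnrnph1 they were Arfip1, a regulator of membrane traffic (r = 0.915), Pfdn6, a subunit of the chaperone prefoldin (0.902), Tmem87a (0.899), the translation helicase gene Eif4a2 (0.891) and the RNA-binding protein gene Tardbp (0.891). For Hnrnpf they were Hspa12b (0.863), Pik3r3 (0.815), the mRNA-binding protein gene Cpeb4 (0.786), Nkrfl (0.777) and Slc6a6, a taurine transporter (0.773). For Ssb they were LOC680385 (0.934), Isy1, a splicing factor (0.907), Churc1 (0.904), Edf1 (0.894) and the kinase co-chaperone gene Cdc37 (0.884). The 3 mRNAs did not follow each other closely, with r = 0.11 for Hnrnph1 and Hnrnpf, 0.33 for Hnrnph1 and Ssb, and 0.07 for Hnrnpf and Ssb.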

How the data were processed

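Per the study's design text, RNA was precipitated from cleared axoplasm on protein A/G beads. The authors deposited 1 table of read counts per transcript, to which 1 had been added, with FPKM values per library and, for 9 pairs of groups, log2 fold changes and FDR values (adjusted p-values) from the authors' edgeR. Per the submitters' processing notes CASAVA 1.8.2 and edgeR were used; the aligner, the read counter, the genome build and the filter behind the table are not stated there or in the labels. In La/SSB RIP 1 the lowest deposited count is 11, and in every other library it is 1, so entries low in that library may be missing. A further 18 columns of normalised counts were not used.

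The deposited counts of all entries were tested with edgeR 4.0.16 in R 4.3.3. The filter was filterByExpr by group, with a count of 10 and a total of 15 as minimums, and TMM factors scaled the libraries. A call was an adjusted p (Benjamini-Hochberg) under 0.05 in the two-sided quasi-likelihood F-test. The comparisons with FLAG and between antibodies used the 15 RIP libraries (13276 entries, 10 residual degrees of freedom), and those with Input all 18 (13300 entries, 12 degrees). Levels in CPM are (count minus 1) per 1000000 reads of the library after TMM scaling. The SE and the 95% interval of a log2 fold change come from the F statistic and the fit's degrees of freedom. A count of 0 is given with the level of 3 reads. The scripts were tested on simulated data. No 2 libraries of the same group agreed within sampling noise. Alternatives were total-count and median-ratio scaling, DESeq2 1.42.0, no filter, 1 subtracted from every count, a replicate block, only the 6 libraries compared, entries summed by symbol, FLAG RIP 2 as the only FLAG library, and each library left out in turn.

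Named were every entry of Hnrnph1, Hnrnpf and Ssb, every entry of the family lists and, for each member, the 5 entries of highest Pearson correlation with a mean log2 CPM of at least 1. The members and lists were chosen with earlier results of these data known. Entrez identifiers of the 3 genes matched their symbols and chromosomes in RefSeq. No coordinates are given because no build is named.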

Additional observations from a re-analysis of the deposited data

How the results depend on the processing

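Over the 3 mRNAs and 15 comparisons, 561 of 640 recomputed results kept their direction and their side of the threshold, 41 lost a call, 11 gained one and 27 changed sign. Ssb kept its calls for hnRNP K against FLAG, hnRNP F against hnRNP K, hnRNP K against La/SSB and among the 4 antibodies in every alternative. The cause of the changes below was not tested. Hnrnpf had 0 to 5 reads in Input, and a count of 0 in Input 1 allows up to 0.552 CPM.

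Values are log2 fold changes. With total counts, sign changed for Hnrnpf (0.16) and Ssb (0.36) with La/SSB against FLAG and for Ssb with hnRNP H1 against Input (-0.28). Calls were lost for Hnrnpf with hnRNP H1 (3.25) and Ssb with hnRNP F (0.65) against Input, and gained for Ssb with hnRNP K against Input (-1.66) and hnRNP F against La/SSB (-1.12). DESeq2 added calls for Hnrnph1 with La/SSB against FLAG (-2.17) and hnRNP H1 against La/SSB (2.49), and for Ssb with hnRNP K (-0.93) and La/SSB (1.54) against Input. Hnrnpf for hnRNP K against La/SSB turned to 0.0398 with DESeq2 and to 0.0393 with median-ratio scaling. With 1 subtracted, Ssb with La/SSB against FLAG turned to 0.15, and calls were lost for Hnrnpf with hnRNP H1 against Input (4.29) and Hnrnph1 for hnRNP F against hnRNP K (2.53). With only the 6 libraries compared, Ssb with La/SSB against FLAG was 0.12. Calls were lost for Ssb with hnRNP H1 (-1.22) and Hnrnph1 with hnRNP K (-2.73) against FLAG and Ssb in FLAG against Input (1.45). They were gained for Ssb with hnRNP K (-1.0) and La/SSB (1.60) against Input, Hnrnpf for hnRNP H1 against hnRNP K (2.05) and Hnrnph1 for hnRNP H1 against La/SSB (2.51). With FLAG RIP 2 alone, Hnrnph1 was 2.1 with hnRNP F, 0.19 with La/SSB and -0.43 with hnRNP K, and Ssb 0.29 with La/SSB and -1.01 with hnRNP H1. By FPKM, which is also scaled by total counts, the ratio of Ssb with La/SSB to FLAG was 1.28 in place of 0.977.

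Leaving out each of the 6 libraries compared in turn, against FLAG Hnrnph1 ranged from -0.18 to 1.45 with hnRNP H1, -0.74 to 0.90 with hnRNP F, -3.28 to -1.63 with hnRNP K and -2.65 to -1.01 with La/SSB. Hnrnpf ranged from -1.13 to 1.61 with hnRNP F, -0.80 to 0.49 with hnRNP K and -0.77 to 0.51 with La/SSB, and Ssb from -0.28 to 0.20 with La/SSB. Against Input, Hnrnph1 ranged from -0.11 to 1.52 in FLAG, Hnrnpf from 3.2 to 4.54 with hnRNP H1 and Ssb from 1.06 to 1.24 with hnRNP F. Between antibodies, Hnrnph1 ranged from 2.65 to 3.59 (hnRNP H1 against hnRNP K) and 2.04 to 3.04 (hnRNP F against hnRNP K), and Ssb from 1.06 to 1.32 (hnRNP H1 against hnRNP K) and -1.53 to -1.10 (hnRNP H1 against La/SSB). Hnrnpf ranged from -0.90 to 1.66 (hnRNP F against hnRNP K), -0.93 to 1.64 (hnRNP F against La/SSB) and -0.55 to 0.47 (hnRNP K against La/SSB). The adjusted p of Hnrnph1 among the 4 antibodies ranged from 0.0093 to 0.0696 on leaving out each of the 15 RIP libraries.

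The labels do not say whether libraries of the same replicate number share a preparation. With group means taken out, the 45 same-number pairs had correlations from 0.0053 to 0.195, 11 of them over 0.1. Of 18 libraries, 18 correlated best with their own number. In each group the share of fibroblast and perineurium markers was highest in replicate 1, as in Input with 9.64, 6.48 and 4.84% of reads. That of skeletal muscle markers was lowest in replicate 2 of each group. The main tests had no term for the replicate number, so a shared preparation would be left in their spread. With the replicate block, Hnrnph1 was no longer called for hnRNP K against FLAG (-2.56) or hnRNP F against hnRNP K (2.38), and Hnrnpf for hnRNP K against La/SSB turned to 0.0289. The block moved the number of entries called from 5 to 33 for La/SSB against Input and from 0 to 9 for hnRNP H1 against hnRNP F.

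Entries called fell with only the 6 libraries from 5245 to 2891 (hnRNP H1 against FLAG), 4473 to 1640 (hnRNP F), 2492 to 674 (La/SSB) and, for FLAG against Input, 2150 to 32. With FLAG RIP 2 alone they were 3372, 2578 and 349 with hnRNP H1, hnRNP F and La/SSB and fell from 4497 to 2672 with hnRNP K. They rose from 1736 to 4169 for hnRNP K against Input, 3767 to 6018 for hnRNP H1 against hnRNP K and 1674 to 4293 for hnRNP K against La/SSB. The split of higher and lower calls with total counts was 2015 and 3581, 1738 and 2958, 1241 and 3680, and 1462 and 471 for hnRNP H1, hnRNP F, hnRNP K and La/SSB against FLAG. Of the 5 most similar entries, 1, 3 and 3 remained for Hnrnph1, Hnrnpf and Ssb by Spearman correlation and 1, 0 and 0 over 6 group means.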
